A study of Mus musculus with 6 samples.

Results

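Nuclei of mouse hepatocytes, the main cell of the liver, were chosen here by 10 genes of the dividing cell. A nucleus was a member if 3 or more of these genes had 1 or more reads: Mki67, Top2a, Cdk1, Ccnb1, Ccna2, Birc5, Bub1, Kif11, Aurkb and Plk1. Of 1567 nuclei, 191 met this rule, which is 12.2% (exact binomial 95% interval 10.6% to 13.9%), and the other 1376 nuclei served for comparison. The reads of the 10 genes chose the members, so the levels of these genes are a description with no test. The summed levels of other mitosis genes did not bear out the name cycling nuclei for most of the members. Only 21 of them had at least 10 reads in at least 3 of the 10 genes, and the higher sums of mitosis genes in the members rested on these 21. Reads of rule genes, which belong mostly to G2 and mitosis, picked the 21, so lower sums without them are in part built in. By the share of nuclei with any read in at least 5 such genes, the members exceeded the others also without the 21, unmatched for depth. With the 21 included, this excess was 10.9 percentage points against all others and 5.19 against depth-matched others. At 10 or more reads per gene, 69 of the other 170 members and 269 of 1376 others had at least 5, unmatched for depth. The 191 are therefore called rule members and the 21 high-read nuclei.

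All nuclei came from livers of female C57BL/6J mice of genotype WT, mated at about 8 weeks of age, and were profiled by Smart-seq3xpress, a plate-based full-length RNA-seq method. There were 3 stages, G0 (gestation day 0), G14.5 (the gestation day in its name) and P7L (day 7 after birth, lactating), with 1 library from liver tissue and 1 from perfusion at each. The titles speak of nuclei, whereas the shared protocol text describes hepatocytes picked by hand after collagenase perfusion. The labels name no animals, so p-values measure only the spread between 6 libraries, which may be technical.

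A quiescent hepatocyte that enters the cell cycle first copies its DNA (S phase), with the MCM helicase, the clamp Pcna and ribonucleotide reductase. It then passes through G2 into mitosis, for which cyclin B1 with Cdk1, the Aurora and Polo kinases, kinetochore proteins and spindle motors are made. Transcription of the late group is known to be shut off outside the cycle by the DREAM complex. This complex binds the cell cycle homology region (CHR), and NF-Y binds nearby CCAAT boxes. Many hepatocytes are polyploid, and the liver is known to enlarge in gestation.

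The promoters of 4 such genes are shown, chosen because letters of both elements stand in them. Top2a and Cdk1 are rule genes, whose reads chose the nuclei, while Cdc20 and Hmmr are not. Each runs from 250 bases before the start to 50 bases after it, 5′ to 3′ on the strand of the gene (RefSeq, GRCm38.p6). Capitals mark TTTGAA or its reverse complement TTCAAA (the CHR core) and CCAAT or its reverse complement ATTGG. The rule genes Ccnb1 and Bub1 held CCAAT without the CHR core in this stretch, and Birc5 held neither. Top2a lies on the minus strand at chr11:99024140-99024439, Cdk1 on the minus strand at chr10:69352863-69353162, Cdc20 on the minus strand at chr4:118437294-118437593 and Hmmr on the minus strand at chr11:40733388-40733687.
Top2a: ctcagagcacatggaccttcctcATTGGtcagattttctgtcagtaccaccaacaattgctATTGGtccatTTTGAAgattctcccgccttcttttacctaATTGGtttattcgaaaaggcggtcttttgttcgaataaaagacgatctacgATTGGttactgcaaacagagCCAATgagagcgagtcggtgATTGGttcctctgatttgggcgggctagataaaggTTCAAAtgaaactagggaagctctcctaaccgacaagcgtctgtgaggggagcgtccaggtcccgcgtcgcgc
Cdk1: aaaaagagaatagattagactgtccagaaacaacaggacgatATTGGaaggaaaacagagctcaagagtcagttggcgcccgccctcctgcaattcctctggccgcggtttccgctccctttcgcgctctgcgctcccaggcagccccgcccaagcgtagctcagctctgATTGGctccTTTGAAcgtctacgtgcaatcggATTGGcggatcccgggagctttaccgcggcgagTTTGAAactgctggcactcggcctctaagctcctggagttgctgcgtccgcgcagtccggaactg
Cdc20: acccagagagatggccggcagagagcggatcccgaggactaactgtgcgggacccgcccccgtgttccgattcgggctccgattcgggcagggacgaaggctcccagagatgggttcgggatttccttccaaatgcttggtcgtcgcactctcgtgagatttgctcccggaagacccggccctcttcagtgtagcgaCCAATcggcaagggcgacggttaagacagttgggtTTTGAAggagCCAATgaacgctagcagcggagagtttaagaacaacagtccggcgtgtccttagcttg
Hmmr: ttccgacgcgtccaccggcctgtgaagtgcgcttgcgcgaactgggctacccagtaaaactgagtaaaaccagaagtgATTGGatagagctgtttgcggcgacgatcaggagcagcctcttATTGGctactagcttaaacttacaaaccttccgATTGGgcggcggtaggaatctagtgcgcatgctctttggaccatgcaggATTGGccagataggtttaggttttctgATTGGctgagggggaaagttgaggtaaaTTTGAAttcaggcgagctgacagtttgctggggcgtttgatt

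Counts per nucleus are reads, and they came largely in pairs. Over all genes and nuclei, 61.5% of the values above 0 were even, and 1702420 values equalled 2 against 536564 that equalled 1. A count of 2 may therefore stand for a single sequenced pair. Members were sequenced more deeply than the other nuclei in 6 of 6 libraries. The median total was 1218770 against 728787 reads in G0 liver tissue, 1792120 against 1161170 in G0 perfusion and 1206110 against 1060900 in G14.5 liver tissue. It was 1547320 against 1171070 in G14.5 perfusion, 1087320 against 703728 in P7L liver tissue and 1356270 against 950620 in P7L perfusion. The mean difference of the medians was 405271 reads (SD 159406, n = 6 libraries, exact two-sided sign-flip permutation p = 0.03125, the smallest that 6 libraries allow). The rule asks for detected genes, and detection rises with depth, so this difference is not independent of the rule. When the nuclei of each library were split into 4 equal depth bins, 27 of 393 nuclei in the shallowest bins were members (6.87%, exact 95% interval 4.58% to 9.84%). In the deepest bins 82 of 391 were (20.97%, 17.0% to 25.4%). The 21 high-read nuclei were spread over the bins as 4, 7, 5 and 5, from shallow to deep.

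The share of rule members was lowest in the G0 libraries. It was 7 of 252 nuclei in G0 liver tissue (2.78%, exact 95% interval 1.12% to 5.64%) and 10 of 184 in G0 perfusion (5.43%, 2.64% to 9.77%). In G14.5 liver tissue it was 49 of 224 (21.9%, 16.6% to 27.9%), and in G14.5 perfusion 41 of 301 (13.6%, 9.96% to 18.02%). The P7L libraries had 43 of 308 (13.96%, 10.3% to 18.3%) and 41 of 298 (13.8%, 10.1% to 18.2%), liver tissue first. With all reads, the intervals of the G0 libraries did not overlap those of the 4 later libraries, while G14.5 perfusion and the P7L libraries could not be told apart within counting error. These intervals cover counting error over nuclei only. They do not cover variation between libraries or animals, since nuclei of 1 library are not replicates of a stage. The values are reads, and several may stem from 1 molecule.

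At an equal 250000 reads per nucleus, reached by random thinning, 61 of 1532 nuclei met the rule (3.98%, 3.06% to 5.09%). The 35 nuclei with fewer reads, 2 of them members, were not used there. The shares were then 1.27% (0.262% to 3.65%) and 0.553% (0.0140% to 3.04%) at G0, liver tissue first. They were 8.48% (5.18% to 12.9%) and 3.33% (1.61% to 6.05%) at G14.5. At P7L they were 5.44% (3.14% to 8.69%) and 4.05% (2.11% to 6.97%). At equal depth both G0 intervals therefore overlapped those of G14.5 perfusion and P7L perfusion, and that of G0 liver tissue overlapped P7L liver tissue, while G14.5 liver tissue stayed apart from both. The high-read nuclei numbered 1 of 252, 0 of 184, 10 of 224, 3 of 301, 4 of 308 and 3 of 298 in the same order of libraries. A count of 0 among 184 nuclei allows a share of up to 1.63%. G14.5 liver tissue thus held 4.46% high-read nuclei (2.16% to 8.06%), and its interval overlapped those of G0 liver tissue, G14.5 perfusion and both P7L libraries.

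**Figure D1:**
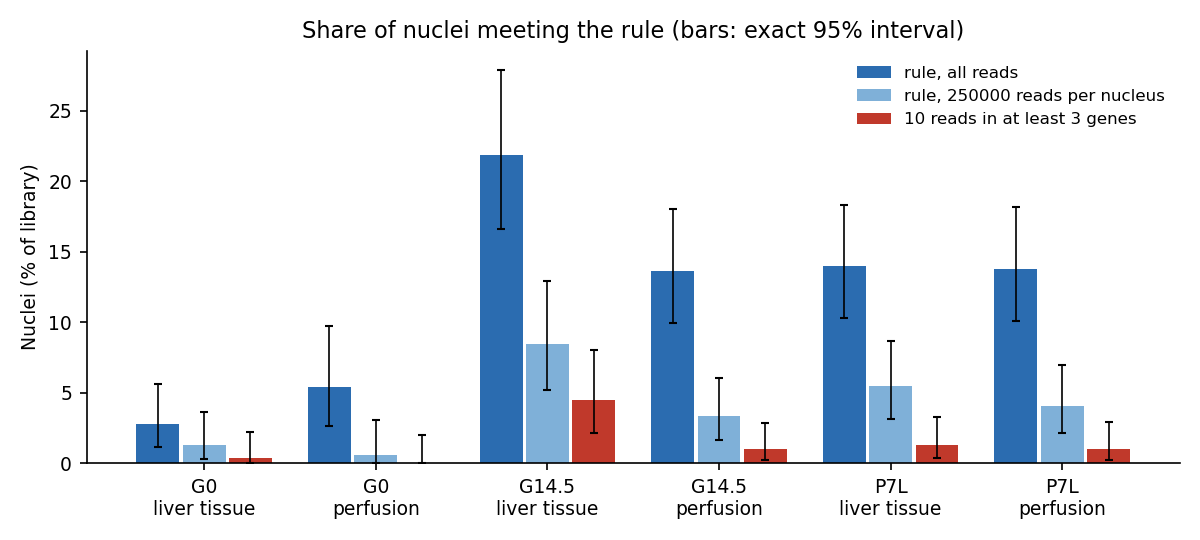
Share of nuclei (percent of each library) that met the rule with all reads, met it after thinning to 250000 reads per nucleus, or had at least 10 reads in at least 3 of the 10 genes. Error bars are exact 95% intervals over nuclei, and the G0 libraries are lowest under the rule with all reads (2.78% and 5.43%).

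Most members passed the rule by few reads. Of the 191, 114 had reads in exactly 3 of the genes, 45 in 4, 14 in 5 and 18 in 6 or more, and 306 nuclei stood just outside with exactly 2. Among the values above 0 of the 10 genes in members, 52.3% were 1 or 2 reads and 69.6% were under 10. Members with exactly 3 genes had a median of 11.5 reads over all 10 genes, and the nuclei with exactly 2 genes a median of 6. The median number of G2 and mitosis genes with at least 10 reads, of 60 in the table with the rule genes left out, was 4 just inside the threshold and 3 just outside.

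The rule genes themselves fell into frequent and rare ones. Kif11, the motor that pushes spindle poles apart, had a read in 126 of 191 members and in 233 of 1376 other nuclei. Top2a, which untangles replicated DNA, had one in 123 members and 231 others. Mki67, which coats mitotic chromosomes, had one in 119 and 193. Birc5, the survivin subunit of the chromosomal passenger complex, had one in 109 and 206. Cdk1, the mitotic kinase, had one in 66 and 71. Ccna2 (cyclin A2) followed with 47 and 66, and the Polo kinase Plk1 with 40 and 35. The checkpoint kinase Bub1 had a read in 39 members and 41 others, cyclin B1 (Ccnb1) in 36 and 43, and the Aurora kinase Aurkb in 25 and 18.

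Where Kif11, Top2a or Mki67 was present, its median was 2 reads in members and 2 reads in other nuclei alike. In the high-read nuclei the same medians were 110 reads for Kif11, 333.5 for Top2a and 187 for Mki67. At least 10 reads of a single rule gene also occurred in other nuclei, from 1 nucleus for Bub1 to 70 for Birc5. Mki67 reached this in 52 other nuclei, with a highest value of 1202 reads. Cdk1 was present in 19 of the 21 with a median of 58 reads, and Birc5 in 19 with a median of 46. Ccna2 was present in 5 of the 21, a share of 23.8%, near the 24.7% of the remaining 170 members. Plk1, present in 9 of the 21, had a median of only 3 reads there. The Ccna2 gene overlaps Exosc9 in the annotation, and its reads cannot be split from those of that gene where strand is not used.

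The high-read nuclei carried many more cycle genes than the rule asked for. Of the 60 G2 and mitosis genes other than the rule genes, the 21 had between 5 and 57 with at least 10 reads, with a median of 43. The other 170 members had at most 12 with a median of 4, and the 1376 other nuclei at most 19 with a median of 3. At least 5 such genes were found in 69 of the 170 and in 269 of the 1376, and at least 10 in 6 and 5. These counts were not matched for depth. At least 18 such genes were found in 19 of the 21 high-read nuclei, in 0 of the 170 and in 1 of the 1376. The 2 exceptions, nucleus 91 of G14.5 perfusion and nucleus 231 of P7L perfusion, had 7 and 5 mitosis genes, within the range of other nuclei.

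The high-read nuclei differed in their number of DNA replication genes. Their totals ran from 491640 to 2635820 reads, and these numbers were not matched for depth. Of 44 replication genes, 3 nuclei of G14.5 liver tissue (numbers 136, 138 and 177) had 30, 31 and 29 with at least 10 reads, beside 18, 20 and 23 mitosis genes. In nucleus 213 of the same library 34 replication genes stood beside 34 mitosis genes. Nucleus 112 of P7L perfusion had 35 beside 33, and nucleus 115 of G14.5 perfusion 24 beside 37. At the other end, the 1 high-read nucleus of G0, number 21 of G0 liver tissue, had 3 replication genes beside 43 mitosis genes. Nucleus 127 of G14.5 liver tissue had 6 beside 49, and nucleus 134 of that library 7 beside 46. Others lay between, such as nucleus 155 of P7L liver tissue with 14 beside 55. The spread between nuclei of 1 library was thus wide, and no difference between libraries was tested with 21 nuclei.

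The rule did not take every nucleus with replication genes. Of the 1376 other nuclei, 6 had at least 18 replication genes with at least 10 reads, and 1 of these had 30. Among the 170 members outside the high-read group, 2 had at least 18. At least 10 were found in 42 of the 170 and in 119 of the 1376, not matched for depth. The 10 rule genes belong mostly to G2 and mitosis, so a nucleus with S phase genes alone could stay outside.

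**Figure D2:**
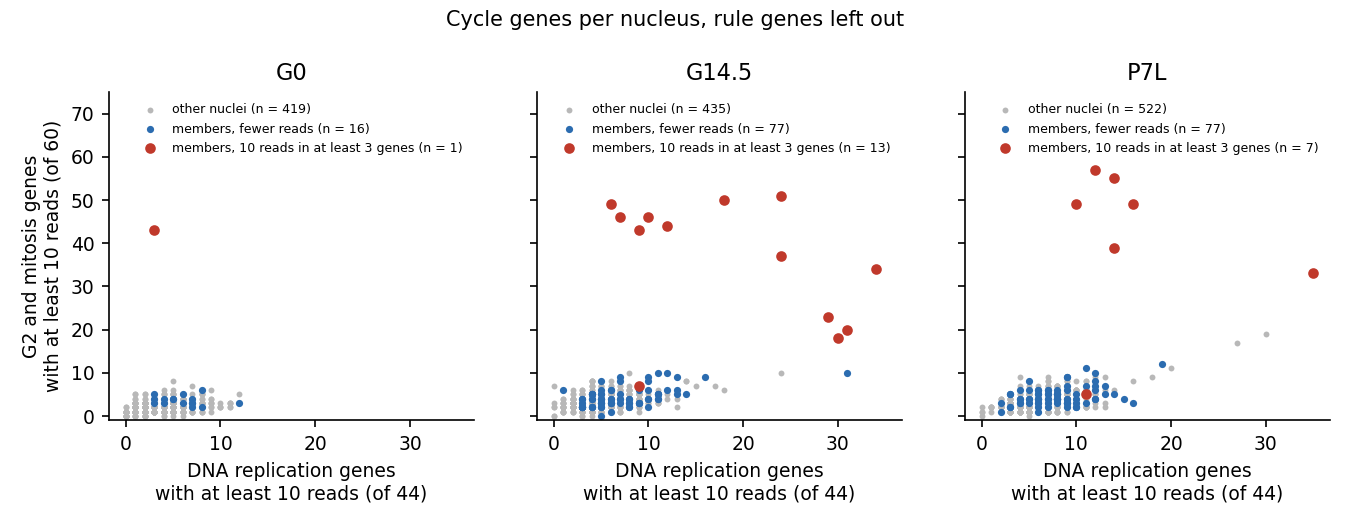
Each point is a nucleus, by the number of DNA replication genes (of 44, x axis) and of G2 and mitosis genes (of 60, y axis) with at least 10 reads, at each stage. The 19 high-read nuclei with 18 or more mitosis genes stand above the 170 other members, whose highest value is 12.

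The members were compared with the other nuclei of the same library by summing reads per library and state and testing 14768 genes with edgeR. None passed a Benjamini-Hochberg adjusted p of 0.05 (percent of tested genes called 0.0), and 778 had an unadjusted p under 0.05. DESeq2 called 200 genes (73 higher and 127 lower) and limma-voom 0. The median log2 fold change of all genes was -0.12. Of 54 tested G2 and mitosis genes, 53 had a positive log2 fold change with a median of 2.36, and 28 of the 29 with an unadjusted p under 0.05 were higher. This direction is not independent of the choice of members.

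Without the 21 high-read nuclei the sums of the mitosis genes were no longer higher in members. Part of this fall is built in, since reads of rule genes, mostly of G2 and mitosis, picked the 21. The median log2 fold change of the 54 genes was then -0.20, with 21 of 54 positive, and the 2 genes with an unadjusted p under 0.05 were lower. With thinned nuclei the median was 0.09 over 37 tested genes, and against depth-matched other nuclei it was -0.02 over 47. Detection gave another picture. At least 5 mitosis genes had a read in 99.6% of members and 88.8% of other nuclei, averaged over libraries. The excess of 10.9 percentage points was 10.8 without the high-read nuclei, each in 6 of 6 libraries (n = 6, exact permutation p = 0.03125). Against depth-matched nuclei, with the high-read nuclei included, it was 5.19 (n = 6, exact permutation p = 0.0625). Cdc20, the activator of the anaphase-promoting complex, is an example of the sums. Its log2 fold change was 4.50 with all members (SE 0.66, edgeR adjusted p = 0.53) and -1.14 without the high-read nuclei (edgeR adjusted p = 0.837). The sums for Cdc20 in members were 15.2 CPM (reads scaled to a common library sum) in G0 liver tissue, 0.0587 in G0 perfusion, 11.03 and 4.78 at G14.5, then 5.35 and 14.1 at P7L. In other nuclei they were 0.434 and 0.0125 at G0, 0.276 and 0.250 at G14.5, then 0.399 and 0.364 at P7L. The G0 perfusion library, which has no high-read nucleus, was the lowest. Cdc20 overlaps Elovl1 in the annotation.

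DNA replication genes in all members had a median log2 fold change of 0.21 (23 of 37 positive), and of -0.36 (15 of 37 positive) without the high-read nuclei. The 20 tested cyclin and E2F genes of G1 and S phase had a median of -0.09, with 9 positive. For the 17 cell cycle inhibitors and p53 targets it was -0.06, with 7 positive, and for the 14 core histones and variants -0.14, with 6 positive. All 3 medians lay near that of all genes.

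No listed liver gene passed the test between members and other nuclei. None of 217 tested metabolic genes or of 42 zone genes was called, with medians of -0.004 and -0.15. The fatty acid and triglyceride synthesis genes had a median of -0.26 (15 of 18 negative), the periportal genes -0.19 (16 of 18 negative) and the pericentral genes 0.10 (10 of 17 positive). The albumin gene Alb had a log2 fold change of -0.35 (SE 0.11, edgeR adjusted p = 0.853). Its sums in members were 1723 and 3171 CPM at G0, 8015 and 6350 CPM at G14.5, then 5586 and 5886 CPM at P7L. In other nuclei they were 3473 and 3483, 9535 and 7093, and 6663 and 7380 CPM in the same order.

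Hepatocytes divide their work along the lobule, with urea and glucose production near the portal vein and drug metabolism and glutamine synthesis near the central vein. A zonation index was computed for each nucleus as reads of 18 pericentral genes over reads of these and 18 periportal genes together. Its median in members and in other nuclei was 0.138 and 0.192 in G0 liver tissue, 0.226 and 0.192 in G0 perfusion, and 0.136 and 0.116 in G14.5 liver tissue. It was 0.104 and 0.0881 in G14.5 perfusion, 0.106 and 0.122 in P7L liver tissue, and 0.139 and 0.0808 in P7L perfusion. Members were higher in 4 of 6 libraries, by 0.00973 on average (SD 0.0394, n = 6 libraries, exact sign-flip permutation p = 0.5625). The difference was smaller than its spread between libraries. It was 0.0225 against depth-matched nuclei (n = 6, exact permutation p = 0.15625) and 0.0236 without Cyp2e1 and Alb (n = 6, exact permutation p = 0.21875). The 21 high-read nuclei ranged from 0.0436 to 0.583 with a median of 0.141, so they lay neither at 1 end of the index nor at the other.

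**Figure D3:**
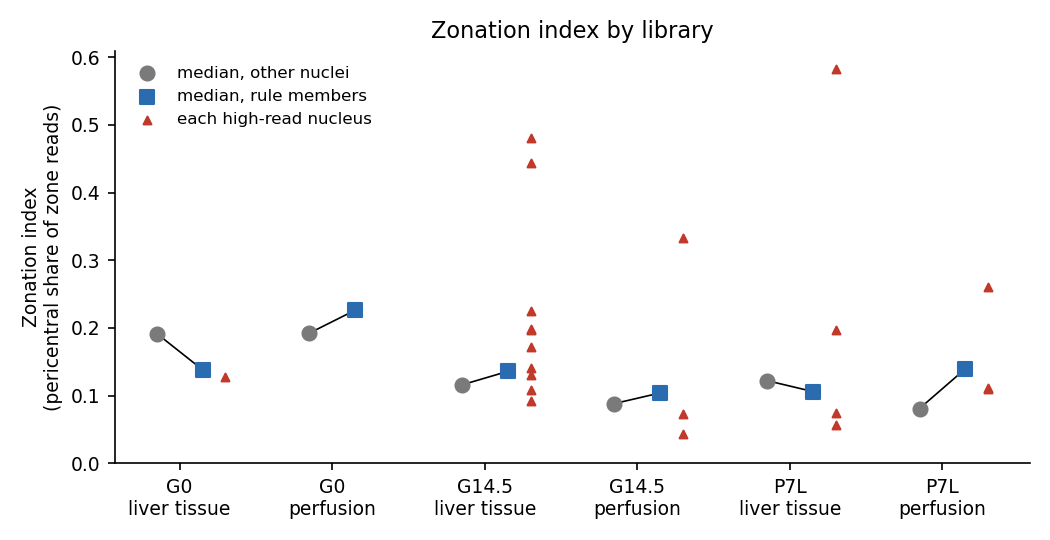
Median zonation index (share of pericentral reads among pericentral and periportal reads) in other nuclei and in rule members of each library, with each high-read nucleus as a triangle. Members are higher in 4 of the 6 libraries, and single high-read nuclei range from 0.0436 to 0.583.

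More genes were detected in members. The median number of genes with a read exceeded that of other nuclei by 805 on average (SD 287, higher in 6 of 6 libraries, n = 6, exact p = 0.03125). After thinning to 250000 reads the excess was 454 genes, again in 6 of 6 libraries (n = 6, exact p = 0.03125). Against other nuclei matched for depth it was 340, in 5 of 6 libraries (n = 6, exact p = 0.0625). The rule itself asks for detected genes, so this excess is not independent of it.

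The high-read nuclei were then set against the other nuclei of their libraries. This used the 5 libraries that hold any and 7804 genes with a read in at least 50% of either set, a filter chosen after the counts had been seen. G0 entered with 1 nucleus. The edgeR fit called 148 genes (1.9%), 128 higher (1.64% of those tested) and 20 lower (0.256%). The median log2 fold change of all genes was -0.35, and -0.48 with scaling by library size alone. Without P7L liver tissue 88 genes were called (7 lower) and without P7L perfusion 94 (6 lower). Without G14.5 liver tissue 99 were (6 lower), without G14.5 perfusion 134 (10 lower) and without the G0 nucleus 141 (13 lower), while DESeq2 called 520 (275 lower). Against other nuclei matched for depth, edgeR called 106 (10 lower). Fewer nuclei with a transcript and less of it per nucleus cannot be told apart in these sums.

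Among the higher genes the mitotic ones led, which the choice of nuclei fixes in part, so their counts and values are a description. Genes near 0 in other nuclei also entered the filter only through the high-read nuclei. Of 55 tested G2 and mitosis genes 45 were higher and none lower, and all 55 had a positive log2 fold change with a median of 6.25. Hmmr, a spindle assembly factor, stood at 269 CPM in the G0 liver tissue nucleus, 211 and 374 CPM at G14.5, then 280 and 117 CPM at P7L. Other nuclei had 0.146 CPM at G0, 0.243 and 0.550 at G14.5, then 0.191 and 0.203 at P7L. Cenpe, the kinetochore motor, ranged from 93.2 to 345 CPM in high-read nuclei and from 0.395 to 0.835 CPM in others. Ndc80, the microtubule coupler of the kinetochore, ranged from 47.9 to 359 CPM against 0.0976 to 0.728 CPM. Ect2, the RhoA activator of cytokinesis, ranged from 339 to 687 CPM against 6.87 to 15.8 CPM.

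Genes outside the lists with the largest positive changes are also given as a description. They included Esco2, which acetylates cohesin in S phase (log2 fold change 9.32), Troap, a spindle-associated protein (9.89), Depdc1a (9.03) and Cep55 (8.69), which acts in abscission. Ankle1, a nuclease, had a log2 fold change of 9.43 and Neurl1b, a ubiquitin ligase of the Notch pathway, one of 9.25. Of the 21 nuclei, 16 were above their library's median for Neurl1b and none below it.

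The 26 tested replication genes had a median log2 fold change of 1.00, with 18 positive and none called lower. Brip1, a DNA repair helicase in that list, rose by 2.78 and was already present in 68.5% of the other nuclei. All 12 tested DNA damage genes had a positive log2 fold change, with a median of 1.64. In both lists, genes rare in other nuclei could pass the filter only through their reads in the high-read nuclei. The signs and medians of the replication and DNA damage lists are therefore in part built in and are a description. Bard1, a ubiquitin ligase subunit of DNA repair (6.32), and Fancd2, of the crosslink repair pathway (4.11), were among those that rose. The calls of Brip1, Bard1 and Fancd2 did not hold under every alternative. When G14.5 liver tissue was left out, the edgeR adjusted p was 0.135 for Brip1, 0.144 for Bard1 and 0.134 for Fancd2. Against depth-matched other nuclei it was 0.185 for Brip1 and 0.159 for Fancd2.

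The letters TTTGAA or TTCAAA stood in the promoters of 49 of 92 higher genes with a RefSeq entry (53.3%), against 12.6% of 5889 tested genes and 18.1% of all 27025 promoters of this length. CCAAT or ATTGG stood in 62.0% of the higher genes, 39.6% of tested genes and 37.9% of all. Both stood in 38.0%, 5.72% and 7.12%. The E2F motif TTCCCGC or GCGGGAA stood in 9.78%, 8.41% and 4.66%. Of the 8 rule genes in the table, 5 had both of the former and 2 more had CCAAT alone. Of 12 lower genes with an entry, 25% had TTTGAA or TTCAAA, 41.7% had CCAAT or ATTGG and 8.33% had both. The rule genes that chose the nuclei belong mostly to G2 and mitosis. The shares of the higher genes are therefore not independent of that choice. The first listed start of each gene was used, and matches of different motifs may share an edge base and count for each. A match of letters is no evidence of binding.

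Of the 20 lower genes, 5 were among the 18 periportal genes tested (background 0.256%), and their median log2 fold change was -1.32, with 16 of 18 negative. None of 15 pericentral genes was called, with a median of -0.79 and 13 negative. Both lists lay below the median of all genes, and the difference between the lists was not tested. Hal, the histidase that opens histidine breakdown (chr10:93488768-93519304, plus strand), had 61.1 CPM in the G0 nucleus, 12.2 and 4.24 CPM at G14.5, then 72.0 and 20.5 CPM at P7L. In other nuclei it had 443 CPM at G0, 125 and 219 CPM at G14.5, then 293 and 452 CPM at P7L. It was lower in each of the 5 libraries (log2 fold change -3.63, SE 0.63, edgeR adjusted p = 0.00332), and 15 of 21 nuclei were below their library's median.

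Hsd17b6, a steroid and retinol dehydrogenase (chr10:127990936-128007611, minus strand), had 16.0, 63.6, 17.4, 38.7 and 5.96 CPM in high-read nuclei of G0 liver tissue, both G14.5 and both P7L libraries. Its other nuclei had 231, 437, 480, 114 and 218 CPM (log2 fold change -3.64, SE 0.67, edgeR adjusted p = 0.00507, 18 of 21 nuclei below the median). Hal and Hsd17b6 kept their calls under all 12 alternatives run for this comparison. The remaining 3 were Sds, serine dehydratase (-4.83), Gls2, liver glutaminase (-2.84), and the serine carrier Sfxn1 (-3.93). Each lost its call when G14.5 liver tissue was left out (edgeR adjusted p = 0.0502, 0.136 and 0.0709) and when P7L perfusion was (0.116, 0.201 and 0.116). The call of Sds also went without G0 liver tissue (0.0531), and that of Gls2 without G14.5 perfusion (0.0716) or P7L liver tissue (0.153). Against depth-matched other nuclei the call of Sfxn1 was lost (edgeR adjusted p = 0.0536). Sds overlaps Plbd2 and Gls2 overlaps Spryd4 in the annotation. Hal, Sds and Gls2 were also the 3 called among 20 amino acid catabolism genes, whose median was -0.69.

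Of 18 tested genes of fatty acid and triglyceride synthesis, 3 were lower and none higher. All 18 had a negative log2 fold change, with a median of -1.60. Pnpla3, a lipid droplet acyl hydrolase (chr15:84167837-84187236, plus strand), had 0 CPM in the G0 nucleus, 27.4 and 50.4 CPM at G14.5, then 1.54 and 24.4 CPM at P7L. In other nuclei it had 33.8 CPM at G0, 1062 and 1051 CPM at G14.5, then 90.4 and 124 CPM at P7L (log2 fold change -4.59, SE 0.66, edgeR adjusted p = 0.000425). The sums of high-read nuclei at G14.5 were below those of other nuclei at P7L. The call went without the library term (adjusted p = 0.0521) and was kept when any library was left out.

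Thrsp, a lipogenic regulator (chr7:97412938-97417730, minus strand), changed by -2.25 and Acaca, acetyl-CoA carboxylase 1 (chr11:84129672-84401651, plus strand), by -1.85. Acaca stood at 165, 202, 88.6, 361 and 519 CPM against 877, 677, 764, 781 and 994 CPM in the same order of libraries, and 19 of 21 nuclei were below the median. Its edgeR adjusted p was 0.0288, and it ran from 0.0641 to 0.138 when each of the 5 libraries in turn was left out. For Thrsp it was 0.106 without G0 liver tissue, 0.0729 without P7L liver tissue and 0.0518 against depth-matched other nuclei. Pklr, the liver pyruvate kinase (chr3:89136142-89146784, plus strand), was the 1 called of 17 genes of glucose metabolism (-3.77), whose median was -1.04. Its adjusted p was 0.051 without P7L liver tissue and 0.0535 without P7L perfusion. Pklr overlaps Hcn3.

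**Figure D4:**
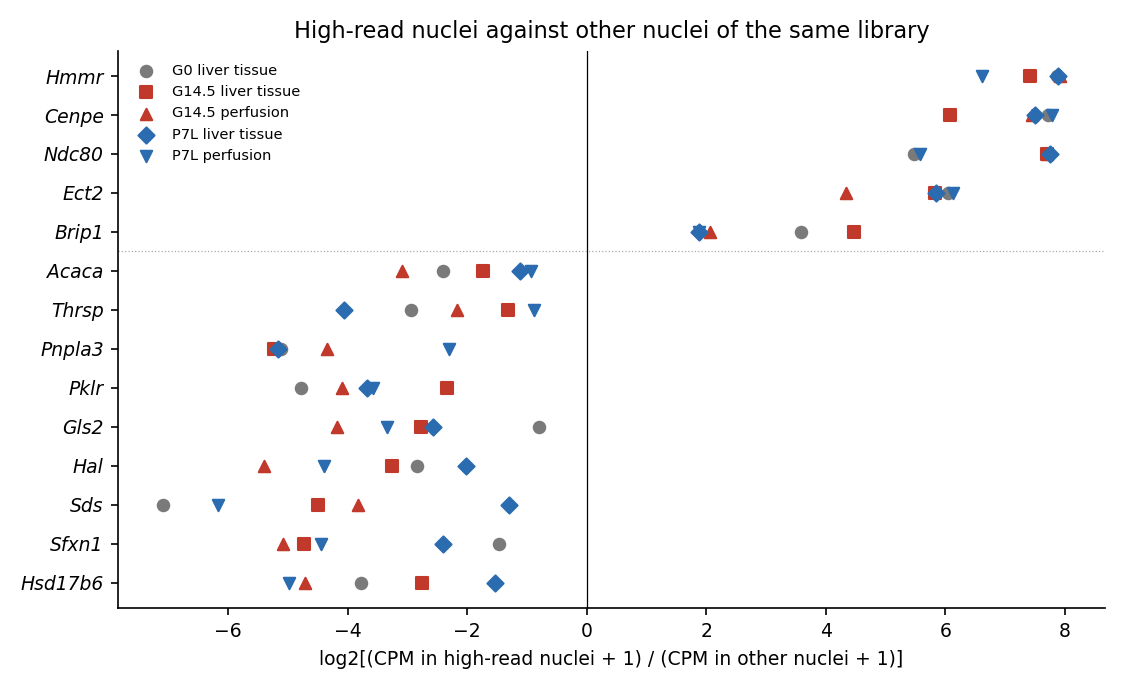
Log2 ratio of summed CPM (with 1 added to each) in high-read nuclei over other nuclei, for 5 cycle genes (above the dotted line) and 9 metabolic genes, with 1 marker per library. The G0 marker stands for 1 nucleus. The genes were chosen by their call in this comparison, so the shared side of their markers is no further evidence. All markers of the cycle genes lie right of 0 and all markers of the metabolic genes left of it.

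Further lower genes were chosen for their call alone. Uox, urate oxidase, was below the library median in 21 of 21 nuclei (log2 fold change -1.94). Cryl1, a crystallin-related dehydrogenase, changed by -5.79, Ppargc1a, a coactivator of gluconeogenic and mitochondrial genes, by -3.50 and Hgfac, the protease that activates HGF, by -2.92. Serpina6, the corticosteroid-binding globulin, changed by -2.00, the steroid dehydrogenase Hsd17b2 by -1.94 and the glutamine carrier Slc38a3 by -1.85. Setbp1, Eml6 and Pclo-1 changed by -4.29, -4.45 and -4.43. For Pclo-1 only 7 of 21 nuclei were below the median and 13 above it, so the sum and the count of nuclei went in opposite directions. Uox overlaps Dnase2b in the annotation. None of these 10 calls held under every alternative. All 10 were lost without G14.5 liver tissue (edgeR adjusted p from 0.0550 to 0.229), 9 without P7L liver tissue (0.0510 to 0.214) and 9 without P7L perfusion (0.0556 to 0.137). Without G14.5 perfusion 8 were lost (0.05001 to 0.119) and without G0 liver tissue 5 (0.0700 to 0.137). Setbp1 and Pclo-1 also lost theirs against depth-matched other nuclei (edgeR adjusted p = 0.0575 and 0.143). The change of Cryl1 was -2.88 without the library term (edgeR adjusted p = 0.282).

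Genes of other liver functions were not called in this comparison. The medians were -0.29 for 17 plasma proteins, -0.29 for 16 hepatocyte transcription factors and -0.33 for 12 bile acid synthesis genes, near that of all genes. They were -0.60 for 18 xenobiotic genes, -0.39 for 18 fatty acid oxidation genes, -0.65 for 18 cholesterol genes and -0.50 for 15 respiratory chain genes. The growth hormone and prolactin signalling list had a median of -1.05, with 9 of 10 negative, 5 of 10 at an unadjusted p under 0.05 and none called. Alb was at 2674 CPM in the G0 nucleus against 3445 CPM in other nuclei, at 6614 and 8171 against 9635 and 7142 CPM at G14.5, and at 4370 and 4295 against 6688 and 7311 CPM at P7L. It was lower in 4 of the 5 libraries and did not pass the test (log2 fold change -0.42, SE 0.28, edgeR adjusted p = 0.638). Glul, glutamine synthetase, had -2.39 (edgeR adjusted p = 0.128).

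All members and all 1376 other nuclei had reads of at least 3 of 10 hepatocyte markers. At least 3 endothelial markers had reads in 148 of 191 members, 16 of 21 high-read nuclei and 920 of the 1376 other nuclei. In members, high-read nuclei and other nuclei it was 63, 8 and 385 for Kupffer cell markers, 58, 7 and 367 for stellate, 47, 4 and 233 for erythroid. The hepatocyte markers made up a median of 1.57% of reads in members, 1.69% in other nuclei and 1.25% in high-read nuclei. In the latter they ranged from 0.833% to 1.56% over the 5 libraries. Between members and others the difference averaged -0.139 percentage points (SD 0.104, lower in 5 of 6 libraries, n = 6, exact permutation p = 0.0625). Markers of Kupffer cells, endothelial, stellate, biliary, lymphoid, neutrophil and erythroid cells made up over 1% of reads in 0 of the 1567 nuclei. The highest share in a high-read nucleus was 0.0954%, for erythroid markers, with Alas2, Epor and Hbb-bt at 0. Of the biliary markers Epcam, Krt19, Krt7 and Tspan8 had no read in the high-read nuclei, and of the stellate markers Des, Hand2 and Lrat had none. Between members and other nuclei, the 9 tested Kupffer cell and macrophage genes all had a negative log2 fold change, with a median of -0.97, and none was called. The part of other cells in the results was not tested.

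Within the members, G14.5 was compared with P7L to ask whether their stage differences were those of the other nuclei. With terms for stage and preparation in all 6 libraries, 21 of 14324 genes were called (0.147%), 16 higher (0.112%) and 5 lower (0.0349%) at G14.5. The same fit on other nuclei, which hold far more reads, called 1360 of 14985 (9.08%), 768 higher (5.13%) and 592 lower (3.95%). All 21 were called there in the same direction. The count in members was 499 without G0 liver tissue, 461 without G0 perfusion, 36 without G14.5 liver tissue, 40 without G14.5 perfusion and 298 with DESeq2. Abcc3, Lifr, Nxph1, Prlr and Serpina6 kept their call under every alternative run for this comparison. Serpina6 had 3097 and 3151 CPM in members at G14.5, then 56.9 and 85.5 CPM at P7L, with 127 and 109 CPM at G0 (log2 fold change 5.47, SE 0.32, edgeR adjusted p = 0.0174). In other nuclei the values were 4053 and 3684 CPM at G14.5, then 114 and 118 CPM at P7L (5.06, SE 0.12).

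Receptors of pregnancy and growth hormones were among the higher genes. Prlr, the prolactin receptor, had 10680 and 12890 CPM in members at G14.5 against 654 and 583 CPM at P7L (log2 fold change 4.27, SE 0.27). In other nuclei it had 10960 and 13000 against 589 and 576 CPM (4.37, SE 0.17). Lifr, the receptor of leukemia inhibitory factor, changed by 4.82 and 4.58 in members and others, Ghr, the growth hormone receptor, by 2.37 and 2.57, and its feedback inhibitor Socs2 by 3.81 and 4.88. Lipc, hepatic lipase, changed by 3.83 and 4.04, and ceruloplasmin (Cp) by 3.55 and 3.14. In the growth hormone and prolactin list, 3 of 13 tested genes were higher in members and 6 of 14 in other nuclei.

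The lower genes at G14.5 were Abcc3, an organic anion exporter (-4.53 in members and -5.48 in others), the amino acid carrier Slc38a4 (-2.91 and -2.63) and the hepcidin gene Hamp (-2.37 and -2.04). The monooxygenase Fmo5 (-3.34 and -3.41) and Nxph1 (-7.07 and -3.92) completed them. Nxph1 had 0.454 and 0.392 CPM in members at G14.5 against 90.6 and 34.1 CPM at P7L, and 3.93 and 1.38 against 32.4 and 41.6 CPM in other nuclei. The remaining higher genes were Slc41a2, Cyp2c69, Pnpla3, Cped1, Necab1, Nedd9, Nrp1, Hacl1 and Nckap5, with log2 fold changes from 1.97 to 5.71 in members. Reads of Cyp2c69 may be shared with near-identical Cyp2c genes, and those of Hamp with Hamp2.

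**Figure D5:**
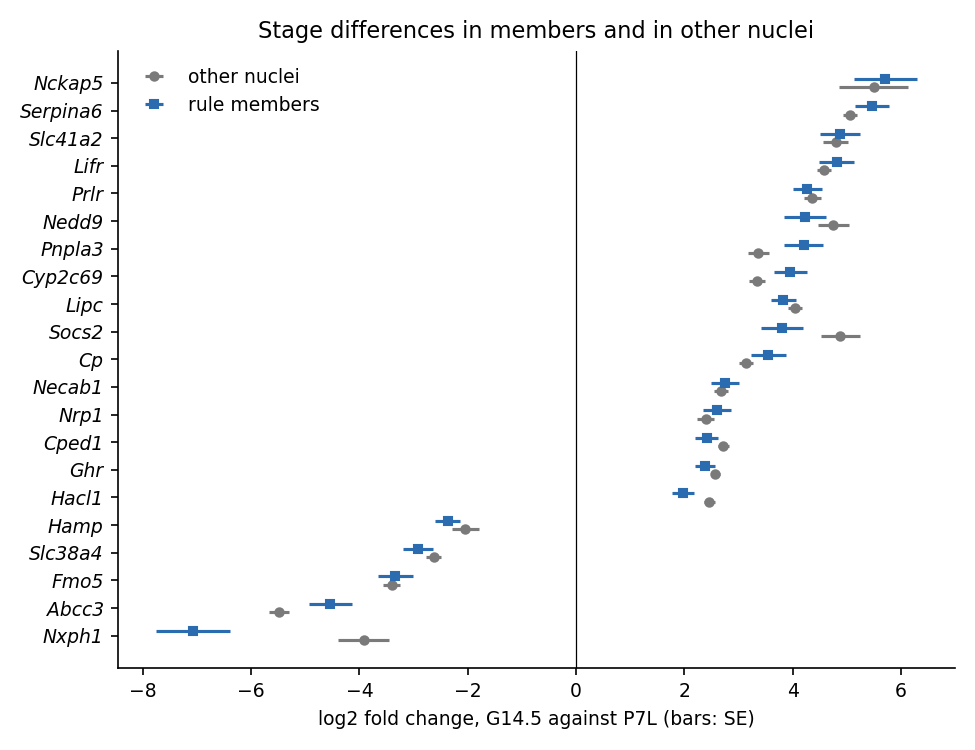
Log2 fold change of G14.5 against P7L for the 21 genes called in rule members, in members (squares) and in other nuclei (circles), with SE bars. The genes were chosen by their call in members, and all 21 lie on the same side of 0 in both sets. Both sets come from the same libraries and are not independent.

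A test of the difference itself, the interaction of state and stage between G14.5 and P7L, called 0 of 14768 genes with edgeR (percent called 0.0), and 147 had an unadjusted p under 0.05. DESeq2 called 8. For the 54 mitosis genes the median interaction was -0.12 with 25 positive, and for 37 replication genes 0.76 with 30 positive, of which 0 had an unadjusted p under 0.05. Pericentral genes had a median of 0.47 (15 of 17 positive) with 1 gene under 0.05, and periportal genes 0.01 (9 of 18 positive).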

How the data were processed

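The authors deposited raw read counts of 40824 genes in 1567 nuclei, made on GRCm38 (mm10) with Trimmomatic 0.39, HISAT2 2.1.0 and featureCounts 1.5.3, per the submitters' processing notes. Use of strand, introns and filters on nuclei are not given in the sources used here. The 92 spike-in rows held 0 reads. All nuclei were used, no doublet caller was run, and nuclei are named by library and number, without barcodes that could be compared. Liver tissue is replicate 1 and perfusion replicate 2 of a stage.

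Reads were summed per library and state, from 9878063 (7 members, G0 liver tissue) to 312887017 reads. Genes entered with a read in 20% of members or 5% of other nuclei and after filterByExpr. edgeR 4.0.16 quasi-likelihood tests (R 4.3.3, TMM, robust) used a library term (members against others, 5 residual degrees of freedom), state by stage (3) or stage with preparation (2). Calls are at a two-sided Benjamini-Hochberg adjusted p under 0.05. CPM is scaled to the TMM library size. Depth matching took 3 other nuclei per member, or 10 per high-read nucleus. DESeq2 1.42.0 and limma 3.58.1 were alternatives. The tests were tried on simulated data. Per-nucleus measures were compared over libraries by exact sign flips. Gene positions are from GENCODE M21.

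Named genes were up to 15 higher and 10 lower called genes with the largest change (8 and 8 for stages), one direction in every library, no Gm or Rik symbol, 10 CPM and reads in 50% of nuclei, plus up to 4 genes per list with the smallest p, and the high-read comparison, its filter and its further lower genes were added after values were seen. Members, lists and tests were chosen with earlier results of these data known. Some called genes are not reported here.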

Additional observations from a re-analysis of the deposited data

How the results depend on the processing

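Members against other nuclei gave 200 calls with DESeq2, 75 for members found at 250000 reads per nucleus (4 libraries), 45 for at least 4 of the 10 genes (4 libraries) and 615 for the high-read nuclei with the usual filter (5 libraries, 153 higher and 462 lower, against 128 and 20 with the filter used in the text). Leaving out a library gave 0 to 5, and 0 were called without the replicate block and under the other settings. The interaction gave 8 calls with DESeq2 and 1 for the high-read nuclei, and leaving out a library gave 0 and 0. Stage within members gave 39 calls with no filter, 298 with DESeq2, 43 with thinned nuclei and 19 to 499 when a library was left out. Without the replicate block (the preparation term) it gave 22. Library size alone moved the median of all genes there from -0.02 to -0.19. High-read nuclei gave 520 calls with DESeq2 (245 higher and 275 lower), 151 with limma-voom (112 and 39) and 196 without the replicate block. Against depth-matched other nuclei they gave 106 (96 higher and 10 lower). Leaving out a library gave 88 to 141, of which 6 to 13 were lower. No paired analysis by animal was possible because the labels give no animal or replicate numbers; the block is the library or preparation.

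The zonation difference ran from -3.83e-05 (without P7L perfusion) to 0.0224 when a library was left out, and was 0.0225 against depth-matched nuclei, 0.0236 without the gene with most reads in each zone list and 0.0170 as a mean over nuclei. Nuclei with at least 5 replication genes exceeded others by 2.86 percentage points, by 16.2 with at least 10 genes, by 18.7 with at least 10 reads per gene and by 0.454 against depth-matched nuclei (higher in 1 of 6 libraries). For mitosis genes the excess was 10.9, against depth-matched nuclei 5.19, with thinned nuclei 18.8, with at least 10 genes 32.0, with at least 10 reads per gene 22.2, without the high-read nuclei 10.8, and 7.56 to 12.6 when a library was left out. The excess of genes per nucleus fell to 340 against depth-matched nuclei and ran from 708 to 864, and that of reads from 360136 to 457284, when a library was left out. With 5 libraries no exact p can fall below 0.0625.

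With at least 2 genes the rule took 14.7%, 13.04%, 44.6%, 40.9%, 30.2% and 40.3% of the libraries (G0, G14.5, P7L, liver tissue first). With at least 4 genes it took 2.17% of G0 perfusion, 9.82% and 4.65% at G14.5, then 4.87% and 6.38% at P7L. Thinned nuclei gave 0.553% in G0 perfusion, 8.48% and 3.33% at G14.5, then 5.44% and 4.05% at P7L, and high-read nuclei 0.397%, 0%, 4.46%, 0.997%, 1.30% and 1.01%.

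Without the high-read nuclei Cdc20 and Cenpe turned from higher to -1.14 and -0.34, and to -0.99 and -0.37 against depth-matched nuclei. For Nrp1 the stage difference was -0.28 in high-read nuclei alone. The cause of these moves was not tested beyond the settings' own construction, which leaves fewer nuclei or libraries.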
